A study of Homo sapiens with 6 samples.

Results

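Autophagy genes of T24 cells were measured after MAP30 and in control cells. The set is a list of 43 genes that build, load, close and fuse the autophagosome. They were chosen by name, with earlier results of these data known. All 43 had at least 1 probe set annotated to exactly 1 gene, so the set makes up 43 of 18132 measured genes and 142 of 49395 probe sets. T24 is an established line of human bladder carcinoma. MAP30, a protein of Momordica charantia, belongs to the ribosome-inactivating proteins, enzymes that depurinate ribosomal RNA. The MAP30 group holds 3 arrays of cells exposed to 10 µg/ml of the protein for 48 h, and the control group holds 3 arrays labelled as normal T24 cells. The labels name no vehicle or other treatment for the control cells. Both groups are 1 cell line in culture medium with serum, and nothing states that the arrays of a group came from separate cultures, and every p-value therefore reflects only how far these arrays lie apart, which may be technical.

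Macroautophagy encloses cytoplasm in a double membrane and delivers it to the lysosome. The ULK1 kinase complex starts the process, a phosphatidylinositol 3-kinase complex around BECN1 marks the membrane, and lipid carried by ATG2 and ATG9 lets it grow. A conjugation system like that of ubiquitin then attaches ATG8 proteins (the LC3 and GABARAP families) to the membrane, receptors such as SQSTM1 tie cargo to them, and STX17 with the tether EPG5 brings the closed vesicle to the lysosome.

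The values are log2 expression values that the authors deposited with each probe set centred on its median over the 6 arrays. An array's value is therefore a distance from that median and not a level: no gene can be called strongly or weakly expressed, the label of the cells cannot be checked against the level of its markers, and values of different genes cannot be set against each other. Differences between arrays are intact. A fold change is MAP30 over control, taken from the mean over a gene's probe sets, with its standard error (SE, n = 3 arrays per group). A gene passed when the limma adjusted p, corrected by Benjamini-Hochberg over all 18132 genes, was under 0.05. The arrays hold bulk RNA, in which fewer cells that express a gene and less of its RNA per cell cannot be told apart.

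The SD of the difference between arrays, over all genes, was 0.105 to 0.121 within groups and 0.617 to 0.621 between groups. The log2 ratio of 3' over 5' control probe sets of ACTB was 0.158 higher with MAP30 (SD 0.0068 with MAP30 and 0.021 in control, n = 3 each; two-sided exact permutation p = 0.1, the smallest possible for 3 against 3), and that of GAPDH 0.043 higher; the part of this shift in the results was not tested. Spiked-in controls moved too, by a mean of 0.21 over 18 hybridization-control probe sets and by -0.16 over 24 poly-A-control probe sets. Centring the arrays on either set was run as an alternative. Over all genes the median log2 fold change was -0.02 without such centring. It became -0.23 after centring on the hybridization controls and 0.14 after centring on the poly-A controls. Of all genes 26.9% were called higher and 30.6% lower, beside which the marker counts stand. Of 8 urothelial and epithelial markers (25% higher and 25% lower) 2 were higher (log2 fold change of GATA3 2.12 and of EPCAM 0.96) and 2 lower (KRT7, -1.03, and KRT8, -0.47). Of 5 leukocyte markers 2 were higher (ITGAM, 2.76, and LCP1, 1.40) and CD14 was lower (-0.26), a call that poly-A-control centring took away. Of 4 endothelial markers KDR was higher (0.22), and of 4 fibroblast markers COL1A1 (0.14), and neither passed as higher with hybridization-control centring. The part of these markers in the results was not tested.

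With MAP30, more of the autophagy genes rose than fell. EPG5 rose most, 6.01-fold, followed by the receptor SQSTM1 (3.28-fold), the nucleation factor UVRAG (2.81-fold) and the LC3 gene MAP1LC3B (2.37-fold), while BNIP3L, a mitophagy receptor, was 2.58-fold lower. Of the 43 genes 23 passed as higher (53.5%, against 26.9% of all genes), 12 passed as lower (27.9%, against 30.6% of all genes) and 8 did not pass. Their median log2 fold change was 0.19, where that of all genes was -0.02, and their median absolute change was 0.40 against 0.19 over all genes. The 3 MAP30 arrays lay wholly above or wholly below the 3 control arrays in 37 of the 43 (86.0%), and in 62.6% of all genes. At least 2-fold higher were 7 members (16.3%, against 5.42% of all genes), and 1 was at least 2-fold lower (2.33%, against 4.13%).

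Scaling moved these counts. With hybridization-control centring 17 members were higher and 16 lower (39.5% and 37.2%, against 17.0% and 63.7% of all genes), and the members' median was -0.021. Poly-A-control centring gave 30 higher and 7 lower members (69.8% and 16.3%, against 49.1% and 20.7% of all genes) and a median of 0.35. The members at least 2-fold higher numbered 4 with the first and 9 with the second. In each of the 3 scalings the share of members called higher was above the share of all genes, and the share called lower was below it. Centring shifts every gene by the same constant, so the 3 scalings are not 3 independent comparisons. No test was run on the list as a whole.

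**Figure D1:**
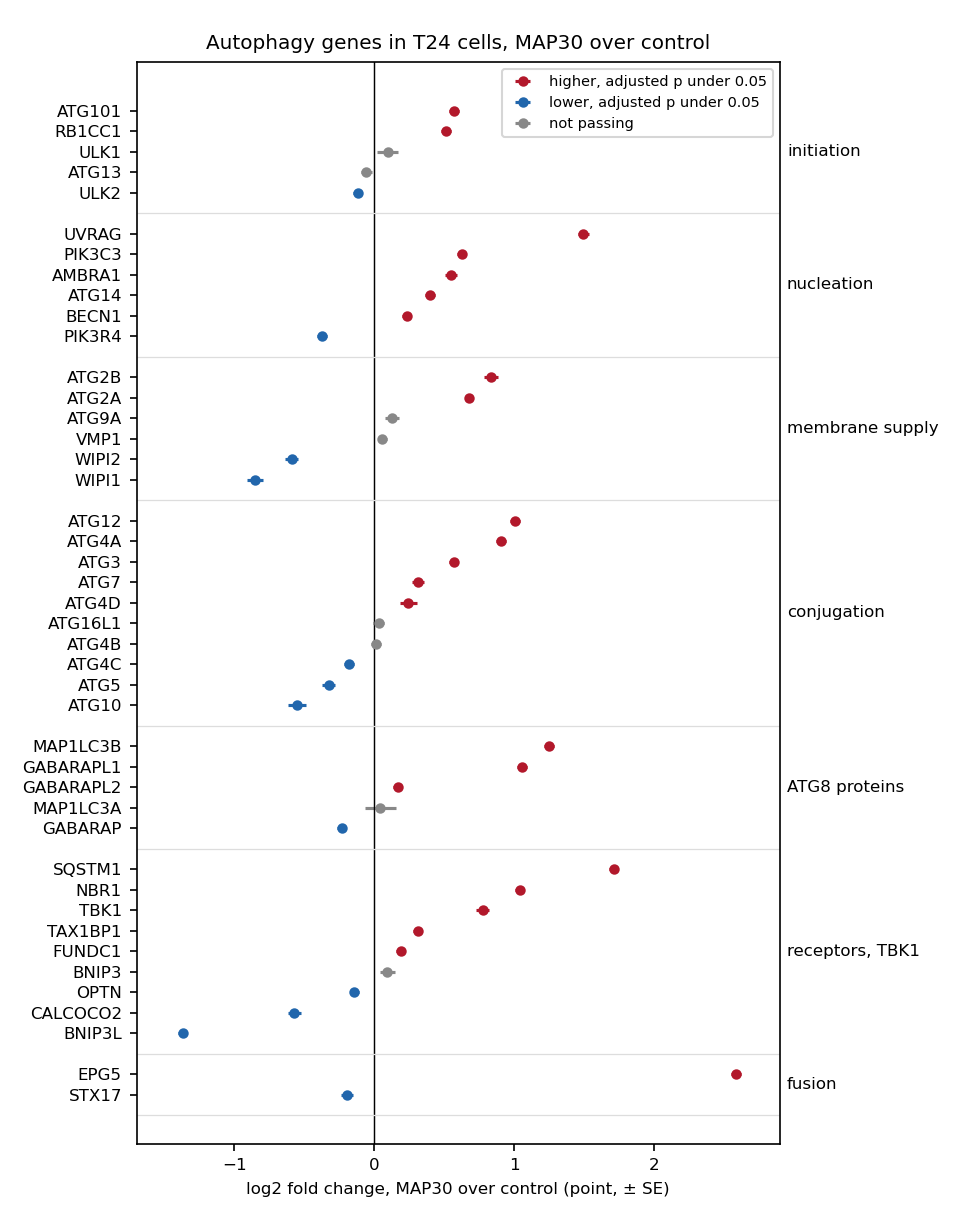
Log2 fold change of each of the 43 autophagy genes, MAP30 over control, with its SE (n = 3 arrays per group), ordered by role; red points passed as higher, blue as lower, and grey points did not pass. EPG5 stands apart at 2.59, BNIP3L at -1.37, and 5 of the 6 nucleation genes are to the right of 0.

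Promoters of the members were searched for 4 short motifs, those of transcription factors known to act on autophagy or stress genes. The windows were the 250 bases before a RefSeq transcription start (GRCh38.p14), and 36 of the 43 members had one, with 44 windows in all; RB1CC1, UVRAG, ATG4D, MAP1LC3A, BNIP3L, STX17 and EPG5 had none in the table. The motifs, read on both strands, were CACGTG (the E-box inside the CLEAR element, which TFEB and TFE3 bind), TGACNNNGC (core of the antioxidant response element), TGACTCA (AP-1) and TGATGCAAT (an ATF4 element); TGACTCA followed by GC would match TGACNNNGC as well. CACGTG lay in 4 of 44 member windows (9.09%), those of TBK1, ATG3, ATG14 and BNIP3, against 6.34% of all 35116 windows. TGACNNNGC lay in 3 (6.82%), those of MAP1LC3B, ATG101 and CALCOCO2, against 10.9%. TGACTCA and TGATGCAAT lay in 0 of the 44, where 4.20% and 0.216% of all windows hold them. A match is a string of letters and not evidence of binding.

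The 5 windows below are those of members called higher that hold a motif, shown 5' to 3' on the strand of the gene, with the motif in capitals. TBK1 lies at chr12:64451870-64452119 (+), ATG3 at chr3:112561963-112562212 (-), ATG14 at chr14:55411831-55412080 (-), MAP1LC3B at chr16:87392086-87392335 (+) and ATG101 at chr12:52069728-52069977 (+).
TBK1 promoter: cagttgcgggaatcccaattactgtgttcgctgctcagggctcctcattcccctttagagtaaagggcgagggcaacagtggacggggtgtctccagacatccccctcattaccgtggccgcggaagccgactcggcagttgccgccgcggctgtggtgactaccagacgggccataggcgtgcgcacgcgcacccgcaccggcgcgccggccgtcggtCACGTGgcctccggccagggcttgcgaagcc
ATG3 promoter: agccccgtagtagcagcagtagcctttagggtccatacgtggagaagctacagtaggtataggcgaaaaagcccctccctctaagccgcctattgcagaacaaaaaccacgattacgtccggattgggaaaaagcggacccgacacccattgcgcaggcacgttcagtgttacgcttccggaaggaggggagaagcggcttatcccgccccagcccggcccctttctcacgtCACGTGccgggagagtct
ATG14 promoter: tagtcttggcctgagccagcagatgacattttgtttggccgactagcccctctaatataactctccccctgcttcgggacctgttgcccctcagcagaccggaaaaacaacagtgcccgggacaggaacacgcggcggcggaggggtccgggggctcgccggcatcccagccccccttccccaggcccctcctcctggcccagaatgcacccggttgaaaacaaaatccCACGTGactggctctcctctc
MAP1LC3B promoter: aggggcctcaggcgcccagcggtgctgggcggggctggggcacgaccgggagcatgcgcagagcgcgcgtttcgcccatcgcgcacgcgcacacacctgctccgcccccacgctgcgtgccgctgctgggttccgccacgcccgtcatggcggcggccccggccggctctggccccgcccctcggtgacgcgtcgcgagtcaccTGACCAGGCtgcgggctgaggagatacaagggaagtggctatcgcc
ATG101 promoter: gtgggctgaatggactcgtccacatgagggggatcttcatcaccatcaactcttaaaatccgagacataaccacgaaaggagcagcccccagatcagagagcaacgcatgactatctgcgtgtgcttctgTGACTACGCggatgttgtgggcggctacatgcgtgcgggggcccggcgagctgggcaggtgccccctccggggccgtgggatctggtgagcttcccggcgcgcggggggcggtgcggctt
The E-box starts at position -31 relative to the transcription start in TBK1, -18 in ATG3 and -21 in ATG14. The antioxidant-type motif starts at position -46 in MAP1LC3B and -120 in ATG101.

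Each count that follows stands beside the share of all genes, which was 26.9% higher and 30.6% lower as deposited, 17.0% and 63.7% with hybridization-control centring, and 49.1% and 20.7% with poly-A-control centring. Values on every array are given only for members that passed without overlap, so separate groups there are a condition of the choice. Among the 5 initiation genes, whose products form the kinase complex that starts an autophagosome, 2 rose (40% against 26.9% of all genes), 1 fell (20% against 30.6%) and 2 did not pass. The median log2 fold change was 0.10, and single arrays moved it: it was 0.045 without MAP30 replicate 3, 0.16 without MAP30 replicate 2, 0.15 without control replicate 1 and 0.062 without control replicate 3. ATG101, which stabilises ATG13 in the complex, had values of 0.32, 0.31 and 0.24 on the MAP30 arrays and -0.29, -0.31 and -0.24 on the control arrays. All 3 MAP30 arrays were above all 3 control arrays, a log2 fold change of 0.57 ± 0.04 SE (1.48-fold; limma adjusted p = 6.61e-06). RB1CC1, the scaffold also called FIP200, stood at 0.22, 0.29 and 0.29 with MAP30 and at -0.25, -0.23 and -0.25 in control, again without overlap (0.51 ± 0.04 SE; adjusted p = 6.94e-06). ULK1 and ULK2 encode the kinases of the complex. ULK2 was at -0.034, -0.045 and -0.080 with MAP30 and at 0.030, 0.083 and 0.086 in control, lower by a narrow margin with no overlap (-0.12 ± 0.03 SE; adjusted p = 0.0197). Only 2 of the 6 probe sets of ULK2 were called lower, and the 6 ran from -0.44 to 0.06. With poly-A-control centring ULK2 turned to 0.044 and did not pass (adjusted p = 0.365), and it also missed the threshold without MAP30 replicate 3 (adjusted p = 0.0559), control replicate 2 (0.0642) or control replicate 3 (0.0664). ULK1 (0.10) and ATG13 (-0.06), the adaptor of the complex, did not pass. ATG13 passed as lower with hybridization-control centring (-0.26) and as higher with poly-A-control centring (0.11). Hybridization-control centring left 2 higher and 2 lower, whereas poly-A-control centring left 4 higher and 0 lower.

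Of the 6 nucleation genes 5 rose (83.3% against 26.9% of all genes) and 1 fell (16.7% against 30.6%), and the median log2 fold change was 0.47. Their products make up the class III phosphatidylinositol 3-kinase complexes, in which BECN1, the kinase PIK3C3 and its regulatory subunit PIK3R4 bind either ATG14, for the autophagosome, or UVRAG, for endosomes and maturation. UVRAG gave 0.70, 0.71 and 0.78 on the MAP30 arrays and -0.74, -0.75 and -0.80 on the control arrays. This is 2.81-fold higher (1.49 ± 0.04 SE; adjusted p = 6.23e-08) with a wide gap between the groups, and 3.34% of all genes had a larger absolute change. PIK3C3 read 0.29, 0.29 and 0.33 with MAP30, against -0.29, -0.32 and -0.36 in control (0.62 ± 0.04 SE; adjusted p = 2.45e-06). AMBRA1, a regulator of BECN1 and of the ULK1 complex, read 0.22, 0.26 and 0.34 with MAP30, against -0.26, -0.27 and -0.30 in control (0.55 ± 0.04 SE; adjusted p = 1.36e-05). Neither gene had overlapping groups, as the choice of genes required. ATG14 (0.40) and BECN1 (0.23) rose less, and PIK3R4 fell (-0.37). The call of BECN1 was lost with hybridization-control centring (0.02; adjusted p = 0.733), which left 4 nucleation genes higher and 1 lower, and poly-A-control centring kept the counts at 5 and 1. The response of UVRAG exceeded that of ATG14 by 1.10 on the log2 scale (SD 0.019 with MAP30 and 0.076 in control, n = 3 each; two-sided exact permutation p = 0.1, Benjamini-Hochberg 0.11 over 11 pairs of related genes).

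Of the 6 membrane supply genes 2 were higher, 2 lower and 2 did not pass, with a median of 0.09. The shares, 33.3% each, were near the 26.9% and 30.6% of all genes. ATG2A and ATG2B, which encode lipid transfer proteins, rose, and WIPI1 and WIPI2, whose products read phosphatidylinositol 3-phosphate on the growing membrane, fell. ATG2B had 0.37, 0.41 and 0.49 on the MAP30 arrays and -0.48, -0.43 and -0.34 on the control arrays (0.84 ± 0.05 SE; adjusted p = 3.20e-06). ATG2A had 0.34, 0.34 and 0.32 with MAP30 and -0.35, -0.34 and -0.33 in control (0.68 ± 0.03 SE; adjusted p = 7.80e-07). The groups of both genes were apart, those of ATG2A with almost no spread. WIPI1 went the other way, with -0.52, -0.46 and -0.34 on the MAP30 arrays and 0.38, 0.49 and 0.36 on the control arrays, 1.81-fold lower (-0.85 ± 0.06 SE; adjusted p = 6.72e-06). WIPI2, which recruits ATG16L1, fell too (-0.59). Of the other measured genes of the same family, which are not members, WDR45 (WIPI4) rose by 0.33 (adjusted p = 0.000172) and WDR45B (WIPI3, -0.073) did not pass. The calls of ATG2A, ATG2B, WIPI1 and WIPI2 held under both control centrings. ATG9A, the lipid scramblase of the vesicles that seed the membrane (0.12), and VMP1, an endoplasmic reticulum scramblase (0.06), did not pass; with hybridization-control centring they stood at -0.084 and -0.15 and VMP1 passed as lower, which made 2 higher and 3 lower. Under poly-A-control centring both passed as higher, which made 4 higher and 2 lower.

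Of the 10 conjugation genes 5 were higher (50% against 26.9% of all genes) and 3 lower (30% against 30.6%), with a median of 0.14. In this system ATG7 activates ATG12 and the ATG8 proteins, ATG10 and ATG3 carry them as E2-like enzymes, ATG12 is joined to ATG5 and bound by ATG16L1, and the ATG4 proteases trim ATG8 and release it. ATG12 had 0.48, 0.52 and 0.49 on the MAP30 arrays and -0.48, -0.50 and -0.56 on the control arrays, 2.01-fold higher (1.00 ± 0.04 SE; adjusted p = 2.55e-07). ATG4A had 0.44, 0.43 and 0.46 with MAP30, against -0.45, -0.44 and -0.52 in control (0.91 ± 0.04 SE; adjusted p = 3.95e-07). ATG3, the E2-like enzyme of ATG8, had 0.29, 0.27 and 0.26 with MAP30, against -0.27, -0.30 and -0.32 in control (0.57 ± 0.03 SE; adjusted p = 2.71e-06). In none of these did the groups overlap, as the choice of genes required. ATG10, the E2-like enzyme of ATG12, fell by 0.55 and ATG5, the acceptor of ATG12, by 0.33. The fall of ATG5 came from 1 of its 3 probe sets, and with only the _at and _a_at classes it did not pass (-0.076; adjusted p = 0.127). As means over probe sets, the responses of ATG12 and ATG5 differed by 1.33 (exact permutation p = 0.1, Benjamini-Hochberg 0.11).

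The 4 ATG4 genes did not share a response: ATG4A rose by 0.91 and ATG4D by 0.24, ATG4C fell by 0.18, and ATG4B (0.01) did not pass. The fall of ATG4C came from 1 of its 2 probe sets (-0.34, with the other at -0.02). ATG7 rose by 0.31 and ATG16L1 (0.03) did not pass. With hybridization-control centring the calls of ATG4D (0.035) and ATG7 (0.10) were lost, and ATG4B (-0.20) and ATG16L1 (-0.18) passed as lower, so that 3 conjugation genes were higher and 5 lower. Under poly-A-control centring the call of ATG4C was lost (-0.02), ATG4B (0.18) and ATG16L1 (0.19) passed as higher, and 7 were higher and 2 lower.

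Among the 5 genes of ATG8 proteins, which coat the membrane and bind cargo receptors, 3 rose (60% against 26.9% of all genes), 1 fell (20% against 30.6%) and 1 did not pass, with a median of 0.17. MAP1LC3B, which encodes the LC3 form used as a marker of autophagosomes, read 0.65, 0.65 and 0.59 on the MAP30 arrays and -0.63, -0.62 and -0.60 on the control arrays (1.25 ± 0.03 SE; 2.37-fold; adjusted p = 7.58e-08). GABARAPL1 read 0.53, 0.50 and 0.57 with MAP30, against -0.50, -0.52 and -0.54 in control (1.06 ± 0.04 SE; 2.08-fold; adjusted p = 1.71e-07). Both were far apart between groups. GABARAP was lower, at -0.10, -0.15 and -0.12 with MAP30 and 0.13, 0.11 and 0.084 in control (-0.23 ± 0.03 SE; adjusted p = 0.000494), and GABARAPL2 rose by 0.17. The last 2 calls rested on the scaling: GABARAP did not pass with poly-A-control centring (-0.07; adjusted p = 0.109), and GABARAPL2 turned to -0.041 without passing with hybridization-control centring (adjusted p = 0.522). Hybridization-control centring left 2 higher and 1 lower, and poly-A-control centring 3 higher and 0 lower. MAP1LC3A (0.04 ± 0.11 SE), the member with the largest SE, did not pass. The response of GABARAPL1 exceeded that of GABARAP by 1.29 (SD 0.029 with MAP30 and 0.0040 in control) and that of MAP1LC3B exceeded that of MAP1LC3A by 1.21 (exact permutation p = 0.1 and Benjamini-Hochberg 0.11 for each).

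**Figure D2:**
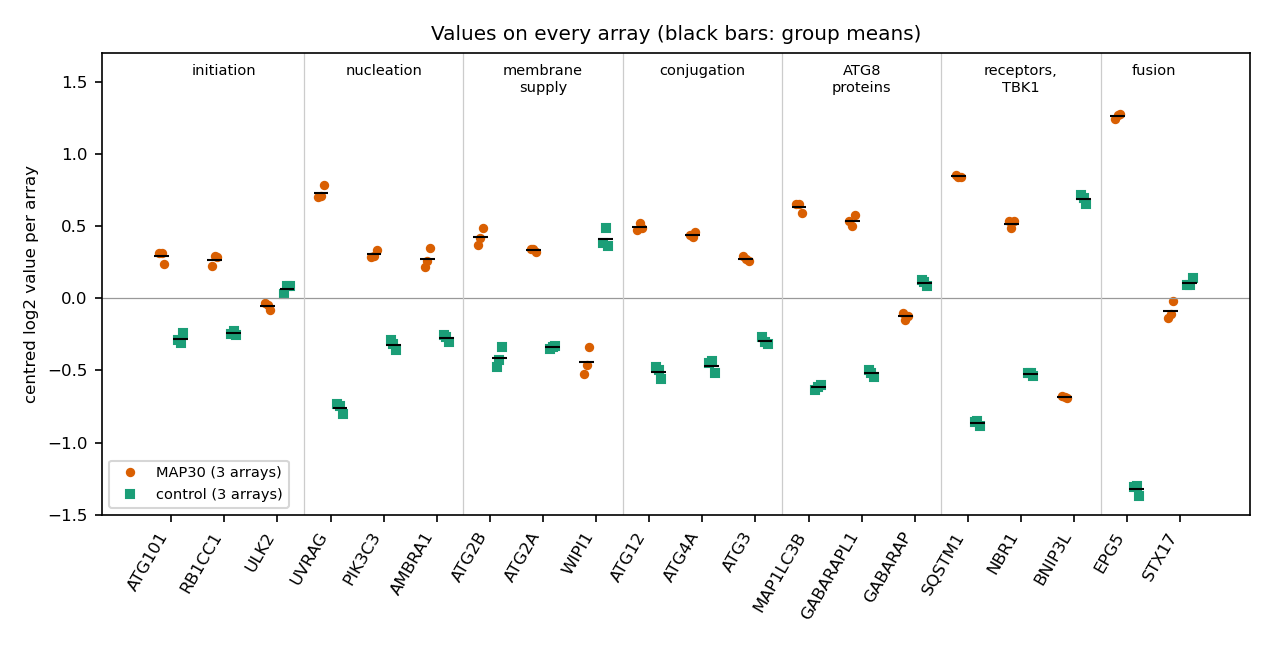
Centred log2 value on each of the 6 arrays for 20 members, with orange circles for MAP30, green squares for control and black bars for group means (n = 3 each). Shown are up to 3 members per role, those with the largest changes among members that passed without overlap. Separate groups are therefore a condition of the choice and not a result. EPG5 and SQSTM1 have the widest gaps upward and BNIP3L the widest downward.

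Cargo receptors with the kinase gene TBK1 numbered 9, of which 5 rose (55.6% against 26.9% of all genes), 3 fell (33.3% against 30.6%) and 1 did not pass, with a median of 0.19. SQSTM1 (p62), the receptor of ubiquitinated protein that is itself degraded by autophagy, had 0.85, 0.84 and 0.84 on the MAP30 arrays and -0.86, -0.85 and -0.89 on the control arrays. The 3 MAP30 arrays lay close together and far above control (1.71 ± 0.03 SE; adjusted p = 1.54e-08). NBR1, which works with SQSTM1 on the same cargo, had 0.53, 0.48 and 0.53 with MAP30 and -0.52, -0.52 and -0.54 in control (1.04 ± 0.03 SE; 2.05-fold; adjusted p = 1.38e-07). Its call rested on 5 of 6 probe sets and was lost with only the _at and _a_at classes, which leave the sixth (0.09; adjusted p = 0.305). TBK1, which phosphorylates receptors, rose by 0.77, and TAX1BP1, a receptor of ubiquitinated cargo, by 0.31. CALCOCO2 (NDP52), a receptor for bacteria and mitochondria, fell by 0.57, and OPTN, a ubiquitin-binding receptor that TBK1 phosphorylates, by 0.14, a call carried by 1 of 3 probe sets and lost with the median over them (-0.067).

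The 3 receptors of mitochondria that act without ubiquitin did not move together. BNIP3L was at -0.68, -0.68 and -0.69 on the MAP30 arrays and at 0.71, 0.69 and 0.65 on the control arrays, the largest fall among the members (-1.37 ± 0.03 SE; adjusted p = 4.62e-08). Its paralog BNIP3 (0.09) did not pass, and FUNDC1 rose by 0.19. The response of BNIP3L was lower than that of BNIP3 by 1.46 (difference -1.46; SD 0.030 with MAP30 and 0.11 in control; exact permutation p = 0.1, Benjamini-Hochberg 0.11). With hybridization-control centring FUNDC1 turned to -0.021 and the call of TAX1BP1 was lost (0.10; adjusted p = 0.114), giving 3 higher and 3 lower of the 9, while with poly-A-control centring OPTN turned to 0.019 without passing and BNIP3 passed as higher (0.26), giving 6 higher and 2 lower.

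The 2 fusion genes moved apart. EPG5, the tether that joins autophagosomes to late endosomes and lysosomes, had 1.24, 1.27 and 1.28 on the MAP30 arrays and -1.31, -1.30 and -1.37 on the control arrays. It was 6.01-fold higher (2.59 ± 0.04 SE; adjusted p = 7.37e-09), the largest change among the members, and ranked 89 of 18132 genes by size of rise. STX17, the SNARE protein of the closed autophagosome, had -0.13, -0.11 and -0.017 with MAP30 and 0.095, 0.090 and 0.14 in control (-0.19 ± 0.04 SE; adjusted p = 0.0047). Its groups were separate but close, and its call was lost with poly-A-control centring (-0.03; adjusted p = 0.472) and with the median over its probe sets (-0.10; adjusted p = 0.0759). The 2 responses differed by 2.78 (exact permutation p = 0.1, Benjamini-Hochberg 0.11).

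In all, 11 pairs of related genes were compared for a difference in response, chosen with the results known. For 10 of them p was 0.1, the smallest that 3 arrays against 3 allow, and for ULK1 and ULK2 it was 0.2, so the design could not bring any of these below 0.05. The further pairs were ATG2B with ATG2A (0.16), WIPI1 with WIPI2 (-0.26), ATG4A with ATG4B (0.89) and GABARAPL1 with GABARAPL2 (0.89), as differences of the first minus the second on the log2 scale.

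Single probe sets showed where a gene's mean hides a split. Of the 142 probe sets of members 75 were higher, 35 lower and 32 did not pass, where 26.5% of all probe sets of 1 gene were higher and 30.2% lower (limma over all 49395 probe sets). Of the 36 members with more than 1 probe set 17 had every probe set called the same way. The share of all genes with such agreement is not given here, so this count describes the members only. Among the 17 were EPG5 (1.97 to 3.01), SQSTM1 (1.34 to 2.67), MAP1LC3B (0.90 to 1.52), CALCOCO2 (-0.65 to -0.38) and BNIP3L (-1.63 to -1.29). UVRAG had the widest range, with 4 probe sets at 0.41, 1.10, 2.06 and 2.40, each higher. In several genes some probe sets passed and others did not. ATG2A had 2 at 1.23 and 2 at 0.13 and 0.11 that did not pass, and ATG2B had 1 of 4 not passing (-0.09) beside 3 higher (0.74 to 1.39). The 2 of ATG2A at 1.23 were nearly equal on every array, as were 2 of the 6 of BNIP3L. Such probe sets may not be separate measurements. NBR1 had 5 of 6 higher (1.05 to 1.51), and the sixth, at 0.09, did not pass. The fall of ATG5 came from 1 of its 3 probe sets (-0.83), and that of OPTN from 1 of 3 (-0.33). STX17 had 4 of 8 lower (-0.62 to -0.35) and 4 not passing (0.01 to 0.18). Probe sets called in opposite directions occurred in 3 of the 36 members (ATG4B, ATG7 and BNIP3), and in 7.24% of the 11734 genes with more than 1 probe set. ATG7 had 0.60 and 0.52 beside -0.18, BNIP3 had 0.33 beside -0.15, and ATG4B had 4 higher (0.14 to 0.28) and 1 lower (-0.47). The position of each probe set on its transcript was not used here.

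**Figure D3:**
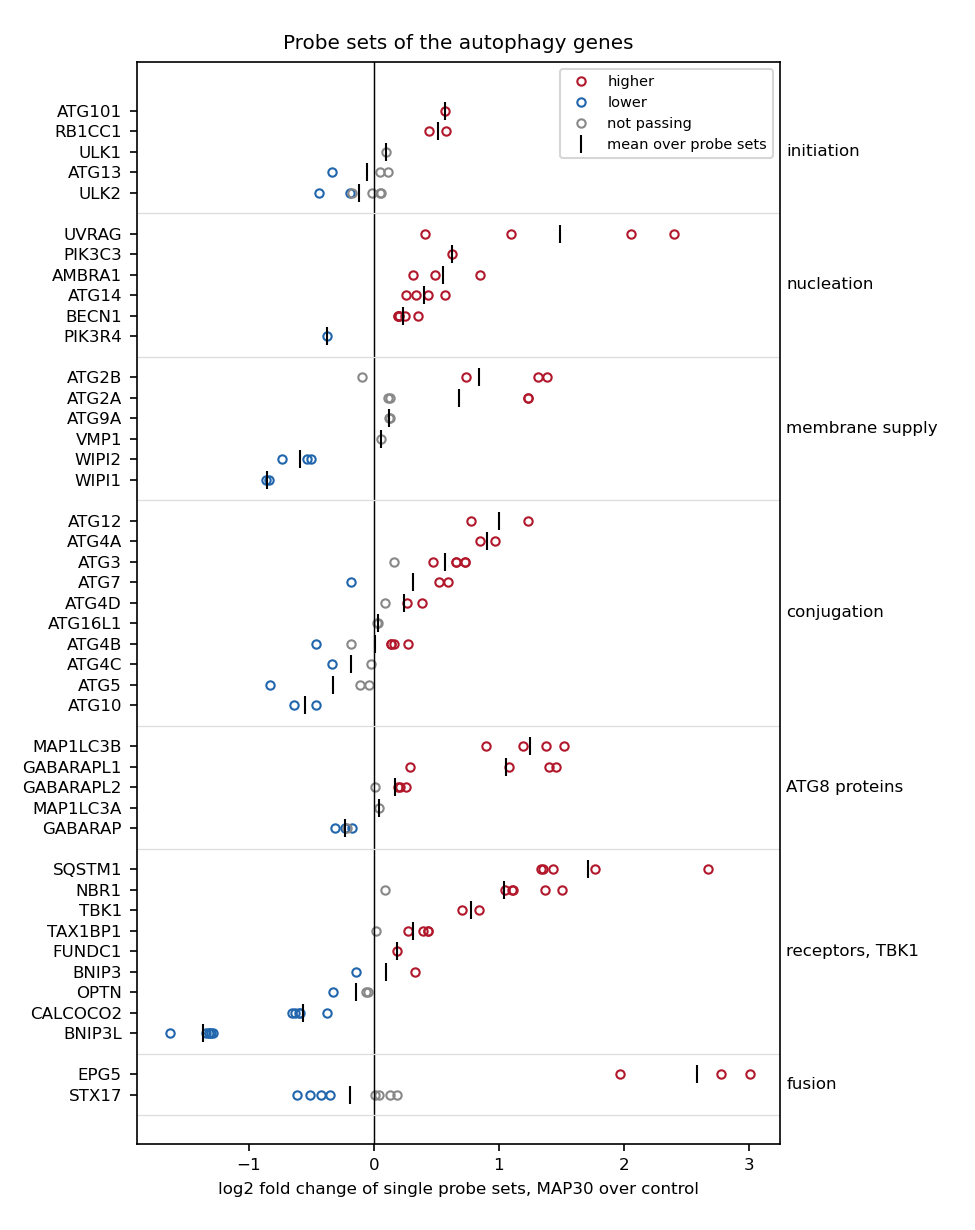
Log2 fold change of each of the 142 probe sets, MAP30 over control, by gene and role, with the call of each probe set in colour and the gene's mean as a black bar. The 4 probe sets of UVRAG spread from 0.41 to 2.40, those of ATG2A fall into 2 clusters, and those of BNIP3L lie between -1.63 and -1.29.

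Genes that act on the pathway but are not members were taken from 5 lists, whose counts also stand beside the shares of all genes, 26.9% higher and 30.6% lower as deposited, 17.0% and 63.7% with hybridization-control centring, and 49.1% and 20.7% with poly-A-control centring. Upstream kinases and nutrient sensors, which switch the ULK1 complex through AMPK and mTORC1, held 12 higher and 13 lower of 31 (38.7% and 41.9%), with a median of -0.01. PRKAB2, a regulatory subunit of AMPK, rose 3.16-fold (1.66 ± 0.03 SE), RRAGB, a RAG GTPase of the mTORC1 pathway, 3.11-fold (1.64 ± 0.10 SE), and SESN2, an inhibitor of mTORC1, 2.65-fold. CAMKK2, which activates AMPK, fell most (-0.90), followed by DDIT4 (-0.84), an inhibitor of mTORC1, and LAMTOR2 (-0.78), part of the RAG anchor. Hybridization-control centring turned the counts into 11 higher and 18 lower (35.5% and 58.1%), and poly-A-control centring into 17 and 9 (54.8% and 29.0%).

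Transcription factors that act on autophagy genes, with their regulators, numbered 18, of which 14 rose and 2 fell (77.8% and 11.1%), at a median of 0.67. The 14 are not all activators. ZKSCAN3 (0.87) represses autophagy genes, and folliculin, encoded by FLCN (1.25), restrains TFEB and TFE3. DDIT3 (CHOP), a factor of the stress response, rose by 3.84, MITF by 2.03 and FNIP1, a partner of folliculin, by 1.67. MITF and TFE3 (1.58) belong to the family of TFEB, which did not pass (0.12). E2F1 (-1.16), better known as a cell cycle factor, and DEPP1 (-0.22) fell. Of these, 11 were higher and 3 lower after centring on hybridization controls (61.1% and 16.7%), against 16 and 1 after centring on poly-A controls (88.9% and 5.56%).

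Core genes outside the list were 7 higher and 7 lower of 21 (33.3% each, near the shares of all genes), with a median of -0.01 that ran from -0.024 to 0.026 when 1 array was left out. ZFYVE1, which marks the membrane where autophagosomes form, rose by 1.33, NRBF2, a subunit of the BECN1 complex, by 0.65 and TRAPPC8 by 0.46; EI24, a membrane protein of the endoplasmic reticulum, fell by 1.22, TBC1D14, a regulator of RAB11 vesicles, by 0.90 and ATG16L2, a paralog of ATG16L1, by 0.46. The counts were 5 and 13 with hybridization-control centring (23.8% and 61.9%) and 12 and 5 with poly-A-control centring (57.1% and 23.8%). Genes listed as further fusion genes were 8 higher and 8 lower of 20 (40% each), with a median of -0.03. The counts include EPS8 (1.55), the largest rise, which is known for actin remodelling and not for fusion. VPS11 (1.48), a core subunit of the HOPS tether, and PLEKHM1 (1.31), an adaptor of HOPS, came next. VAMP8, the SNARE partner of STX17, fell by 0.75, the ESCRT ATPase gene VPS4A by 0.53 and the GTPase gene RAB2A by 0.50. These counts became 5 and 12 with hybridization-control centring (25% and 60%) and 11 and 5 with poly-A-control centring (55% and 25%).

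A further list of 27 genes held organelle receptors and genes that act with them. Of these 15 were lower (55.6%, against 30.6% of all genes) and 8 higher (29.6%, against 26.9%), with a median of -0.23. The counts are not those of receptors alone: PINK1, KEAP1, RBCK1 and VCP, all called lower, and UBQLN1, called higher, are not cargo receptors in the strict sense. RTN3 (-1.44) and ATL3 (-1.42), receptors for endoplasmic reticulum, and NIPSNAP2 (-1.04), a mitochondrial marker for receptors, were lowest. NUFIP1 (0.81), a receptor for ribosomes, UBQLN1 (0.70), a ubiquitin-binding shuttle, and WDFY3 (0.61), a scaffold for protein aggregates, were highest. Here the counts were 17 lower and 4 higher with hybridization-control centring (63.0% and 14.8%, against 63.7% and 17.0% of all genes) and 11 each with poly-A-control centring (40.7% each, against 20.7% lower and 49.1% higher).

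**Figure D4:**
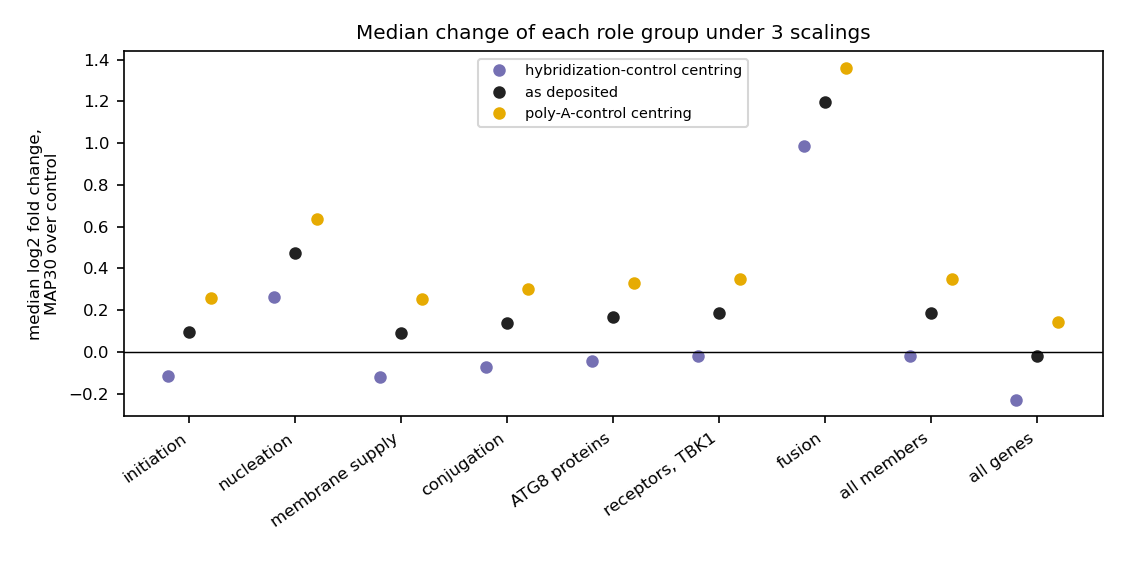
Median log2 fold change, MAP30 over control, of the 7 role groups, of all 43 members and of all 18132 genes, as deposited and with arrays centred on either set of spiked-in controls. Nucleation (0.27 to 0.64) and fusion (0.99 to 1.36) stay above 0 in all 3 scalings, and the other groups cross 0 with hybridization-control centring. Fusion holds only 2 genes, EPG5 (2.59) and STX17 (-0.19, called lower), so its median is the midpoint of opposite changes. All members lie above all genes in each scaling. Centring moves both medians by the same constant, so their distance could not change.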

How the data were processed

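The 6 arrays were Affymetrix 3' expression arrays labelled with biotin by in vitro transcription, per the labels' protocols. The authors deposited 1 table of log2 values for 49395 probe sets with 0 missing values; RMA and MAS5 are named without their role, per the submitters' processing notes. The base of their logarithm, not given in the sources used here, was assumed to be 2. Over the 6 arrays no probe set has a median above 5.0e-07 in size, so each was centred before deposit. Filters on dim probe sets, background correction and detection limits could therefore not be applied, and precision is limited by the number of arrays.

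Gene symbols came from the platform annotation: 44988 probe sets had 1 symbol, 1832 several, 2473 none and 102 were controls. Of the 44988 probe sets, 44961 had a gene ID found in the RefSeq table, with 0 symbols changed. Gene values (mean over probe sets of 1 symbol) and single probe sets were fitted with limma 3.58.1 in R 4.3.3 (lmFit, eBayes, two-sided, Benjamini-Hochberg, adjusted p under 0.05), without further normalization. The fit was tested on simulated data with independent noise and few changed genes, which says nothing on the scaling of the arrays. Exact permutation over arrays (two-sided) served for pairs of genes. Python 3.11.15, pandas 2.3.3, numpy 2.4.6, scipy 1.17.1 and matplotlib 3.10.9 were used.

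Members, lists, motifs and pairs were chosen with earlier results of these data known. Every member is named. Values on every array are given for up to 3 members per role with the largest change among those that passed without overlap. Of the further lists the 3 largest rises and 3 largest falls are named. TFE3, TFEB, ZKSCAN3, FLCN, WDR45, WDR45B, PINK1, KEAP1, RBCK1 and VCP were added, chosen with their values known. The alternatives were the median over probe sets, only the _at and _a_at probe set classes, centring on hybridization controls (bioB, bioC, bioD, cre) or poly-A controls (dap, lys, phe, thr), quantile normalization, robust eBayes, the replicate number as a block and leaving out each array. Arrays of the same number did not deviate together (correlation of deviations -0.04, 0.07 and 0.01), so the numbers were not taken as pairs.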

Additional observations from a re-analysis of the deposited data

How the results depend on the processing

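Of the 35 members called, 22 (16 higher and 6 lower) kept their direction and their call in all 13 alternatives, and 13 did not. The same count is not given for all called genes, so it does not show whether the members are more or less stable than others. Apart from the control centrings, calls were lost for ULK2, ATG5, NBR1, OPTN and STX17. Calls were also gained. The median over probe sets left 6 conjugation genes higher, not 5. Quantile normalization, and leaving out MAP30 replicate 2, left 3 membrane supply genes higher, not 2. With only the _at and _a_at classes 5 receptors stayed higher although NBR1 lost its call, and BNIP3 kept a single probe set (0.33). With only the _at and _a_at probe set classes NBR1 rested on 1 probe set (0.09; adjusted p = 0.305), ATG5 stood at -0.076, OPTN at -0.065 and ULK2 at -0.055. The median over probe sets took the call from OPTN (-0.067) and STX17 (-0.10). Quantile normalization took it from ULK2 (-0.094; adjusted p = 0.052). With robust eBayes no member changed its call.

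Over all genes, hybridization-control centring gave 3087 higher and 11558 lower, and poly-A-control centring gave 8906 higher and 3754 lower. Of the members, poly-A-control centring gave 7 lower (16.3%, against 20.7% of all genes) and 30 higher (69.8%, against 49.1%). With hybridization-control centring the medians were -0.021 for all members, -0.11 for initiation, 0.27 for nucleation, -0.12 for membrane supply, -0.071 for conjugation, -0.041 for ATG8 proteins, -0.021 for receptors and 0.99 for fusion. With poly-A-control centring they were 0.35, 0.26, 0.64, 0.25, 0.30, 0.33, 0.35 and 1.36 in the same order. These shifts are the construction of the centring, a constant per array. The median of all members was 0.22 with only the _at and _a_at classes and 0.22 with quantile normalization, which also gave 0.22 for receptors and 1.01 for fusion. The median over probe sets gave 0.18 for conjugation and 1.31 for fusion. Leaving out 1 array moved the conjugation median between 0.10 and 0.17 and the initiation median between 0.045 and 0.16.

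With hybridization-control centring the values of ULK1 (-0.11), ATG9A (-0.084), VMP1 (-0.15), ATG4B (-0.20), ATG16L1 (-0.18), MAP1LC3A (-0.17), BNIP3 (-0.12), GABARAPL2 (-0.041) and FUNDC1 (-0.021) were below 0, and with poly-A-control centring those of ULK2 (0.044), ATG13 (0.11) and OPTN (0.019) were above 0. ATG13 was also above 0 as the median over probe sets (0.038), and ATG4B was -0.0078 with only the _at and _a_at classes. Without 1 array ATG4B ran from -0.0064 to 0.026 and MAP1LC3A from -0.080 to 0.15. The sign changes with control centring follow from its constant per array, and the cause of the others was not tested.

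With the replicate block 23 members were higher and 11 lower, and 4838 genes were higher and 5483 lower; ULK2 lost its call (-0.12; adjusted p = 0.0506) and no other member did. Not every array correlated best with its own number. Centred values leave signal over background unknown, so a filter on dim genes was not run and what dim probe sets limit cannot be given.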

Other observations

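Several probe sets that are annotated to a member and to a second gene were left out of the gene values. The 2 shared by VMP1 and the microRNA gene MIR21, whose primary transcript overlaps the end of VMP1, were lower with MAP30 by -0.54 and -0.56 on the log2 scale (limma adjusted p = 1.52e-05 and 1.19e-05), while the probe set of VMP1 alone stood at 0.06 and did not pass. Of the 5 shared by ATG9A and ABCB6, a neighbouring transporter gene, 1 was lower (-0.79; adjusted p = 0.000112) and 4 did not pass (-0.24 to 0.08); the 2 probe sets of ATG9A alone stood at 0.12 and 0.13 and did not pass. Which of the 2 genes such a probe set reads cannot be told apart.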
